A study of Arabidopsis thaliana with 6 samples.

Results

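The WUS-GR regions described here are those whose midpoint lay in a 5′ untranslated region (5′ UTR), the transcribed leader between the transcription start site (TSS) and the start codon. WUS-GR is WUSCHEL (WUS), a regulator of stem cells, joined to mCherry and to a glucocorticoid receptor (GR) domain that dexamethasone activates. Touching 100 bp windows of the WUS-GR list were merged, and a region was kept when its midpoint fell in an exonic 5′ UTR of a protein-coding gene and in no coding sequence. This gave 1607 of 10087 WUS-GR regions, or 15.9% (Wilson 95% interval 15.2 to 16.7%), and they lay in the 5′ UTRs of 1591 genes.

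All seedlings of Arabidopsis thaliana were 5 days old after germination and had received 25 µM dexamethasone for 2 h according to the labels. The transgenic line (pUBI10::mCherry-GR-linker-WUS) carried the fusion under the ubiquitin 10 promoter, which is active in most tissues, so the fusion was also made in cells that normally lack WUS. The study's methods describe the line as homozygous for a single insertion. Col-0 plants, which lack the transgene, were the control and were treated in the same way. Chromatin from whole seedlings was pulled down with RFP-trap, which binds mCherry, or with antibodies to either of 2 marks on histone H3, acetylation at K9 and K14 (H3K9/K14ac) or trimethylation at K27 (H3K27me3). Each of the 6 combinations of genotype and pull-down was represented by 1 list of positions, made from pooled immunoprecipitations and more than 1 library, which the list does not separate. A list holds the windows in which its genotype exceeded the other. There were therefore no replicates and no p-values, and the intervals below cover counting error only, over regions that are not fully independent of their neighbours. The lists hold no read counts, so sequencing depth is unknown and the tissue could not be checked with marker genes.

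WUS is a homeodomain transcription factor that keeps the stem cells of the shoot meristem undifferentiated, and it can recruit TOPLESS corepressors, which work with histone deacetylases. In plant genes H3K9/K14ac is concentrated just downstream of the TSS of active genes, on the nucleosomes that cover the leader and the start of the coding sequence, whereas H3K27me3 is laid down by the Polycomb system over silent genes. A region in a leader therefore sits on DNA that is both transcribed and, at an active gene, normally acetylated.

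To show the DNA behind the regions, 30 bases on the strand of the gene are printed for 2 sets of members, from the RefSeq copy of TAIR10.1. The first set comes from the 10 widest members, the hormone, meristem and related gene lists, and the widest members with an H3K9/K14ac change, and holds those with the G-box, a site for bHLH and bZIP transcription factors, inside the 5′ UTR. Other members named below for an H3K27me3 change or for sharing a leader with another member were not searched for printing, although AN3, AOC2, PLAT2, AT1G67900, AT5G66650 and AT5G05250 also held the word. The G-box is in capitals.
BES1, chr1:6688605-6688634 (+): attcatcatcgaCACGTGgctggtttaact
STZ, chr1:9649297-9649326 (−): tgcacacacacaCACGTGtactaggtcaaa
MTP11, chr2:16473999-16474028 (−): atctcaactgtaCACGTGtgtatgatgact
AT5G66580, chr5:26572371-26572400 (+): gcctctgtctgcCACGTGgcatcttcctcc
The G-boxes lay 156 bp downstream of the TSS in BES1, a transcription factor of brassinosteroid signalling, 11 bp in STZ, a zinc finger protein of the salt response, 46 bp in MTP11, a cation efflux protein, and 120 bp in AT5G66580, which is uncharacterized. All 4 were named because they were among the widest members that overlapped gained H3K9/K14ac, so the gain is how they were chosen, and none of the 6 other members with the G-box just named overlapped such a gain there.

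The second set holds the GA repeat GAGAGA or its complement TCTCTC, the word found most often among those searched, and was chosen after the values were seen. It shows the 3 earlier WUS targets among the members (KAN2, AS2 and KAN) and the 3 members of the named hormone and meristem lists that held the repeat and overlapped lost H3K9/K14ac (IAA13, LOG7 and REV). The repeat nearest to the midpoint is in capitals.
KAN2, chr1:11630691-11630720 (−): ttctctctcctcTCTCTCacacacactcaa
AS2, chr1:24398717-24398746 (+): agtcagaccccaTCTCTCatttcccatctc
KAN, chr5:5411553-5411582 (−): aacacacatataTCTCTCtctcttacctgt
IAA13, chr2:14116010-14116039 (−): cacctaatcctcTCTCTCtttcttcttcct
LOG7, chr5:1925296-1925325 (−): gagagagagagaGAGAGAcaaagtaacaaa
REV, chr5:24397046-24397075 (+): tcttcttctcttTCTCTCtcttcctctttt
In 5 of these 6 leaders the strand of the gene carried the CT form, and LOG7 carried the GA form.

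The leaders held more WUS-GR regions than their share of the genome. Non-coding 5′ UTR bases made up 4.91% of the 119 Mb of nuclear chromosomes, and 10.9% of them lay inside a WUS-GR region, against 3.56% of all bases. In the reverse comparison, the list of regions with more RFP-trap signal in Col-0, 19 of 580 regions (3.28%, 2.11 to 5.06%) had the midpoint in a 5′ UTR. The share among WUS-GR regions varied little between chromosomes, from 14.7% to 16.5%. Of the other WUS-GR regions, 2483 had the midpoint within 500 bp upstream of a TSS, 2613 lay from 500 to 2500 bp upstream, and 550 fell in coding sequence.

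The members were gathered at the start of the leader. The midpoint lay at a median of 97 bp downstream of the TSS, with quartiles of 44 and 191.5 bp, and at a median of 253 bp before the start codon. Most regions reached back over the TSS: 66.1% (63.8 to 68.4%) covered it, 27.9% covered the start codon, and 19.9% covered both. A further way to see this is that 34.3% lay wholly downstream of the TSS and only 23.5% wholly within 5′ UTR bases, while 30.3% held at least 1 coding base. The position 100 bp downstream of the TSS was covered by 80.8% of the members, more than the TSS itself. The rule admits only midpoints at or downstream of the TSS, so higher coverage on that side follows in part from the rule.

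**Figure D1:**
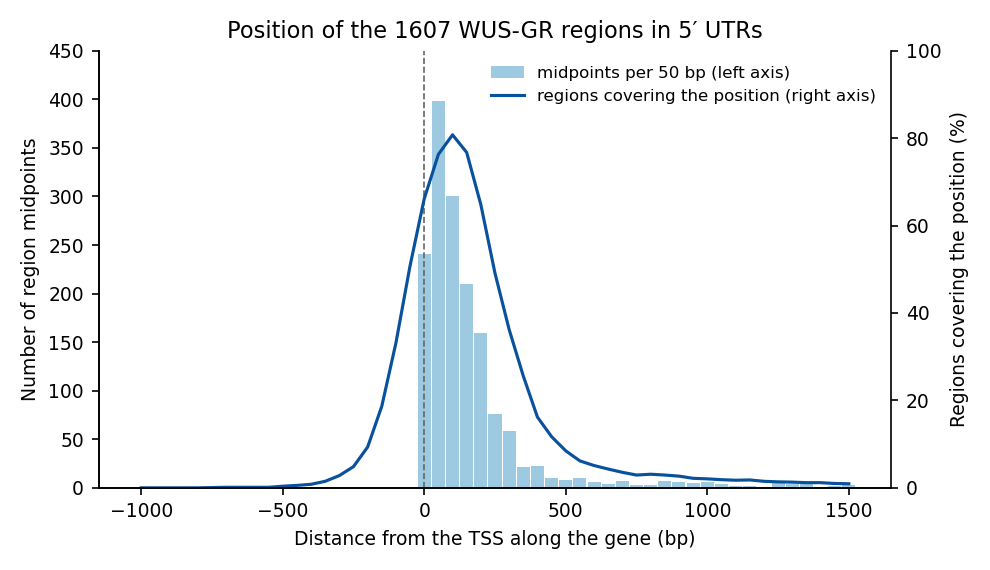
Position of the 1607 WUS-GR regions in 5′ UTRs along their genes. Bars give the number of midpoints per 50 bp (left axis) and the line gives the percentage of regions that cover each position (right axis), which was highest, at 80.8%, at 100 bp downstream of the TSS (dashed line). By the rule, no midpoint could lie upstream of the TSS.

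Leaders interrupted by introns showed the same preference for the 5′ end. Among 317 members in a 5′ UTR made of more than 1 exon, 292 (92.1%, 88.6 to 94.6%) had the midpoint in the first exon, which held 71.8% of the bases of those leaders. Only 37 WUS-GR regions had the midpoint in a leader intron.

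The genes with a member had long leaders. Their annotated 5′ UTR had a median length of 365 bp, with quartiles of 253 and 535 bp, compared with 219 bp in the 7022 genes with other WUS-GR regions only and 168 bp in the 14973 genes with none. A longer leader can hold more midpoints by construction, so the genes were also described by length. A member was found in 0.455% of genes with a leader under 100 bp, 2.58% at 100 to 199 bp, 9.98% (9.31 to 10.7%) at 200 to 399 bp and 16.0% (14.9 to 17.1%) at 400 bp or more. Per kb of leader the density still rose between the short and the middle classes, from 0.0773 regions under 100 bp to 0.174 and 0.355, and then was lower, at 0.252, in the longest class.

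Leader introns and upstream ATG triplets were compared in the same way, since both depend on length. Over all lengths 19.2% (17.3 to 21.2%) of member genes had a leader intron in the longest transcript, against 16.5% (15.9 to 17.1%) of genes with no WUS-GR region. Within each length class the order was the opposite. Leader introns were found in 13.2% (10.9 to 15.8%) of member genes and 24.1% (22.8 to 25.4%) of unbound genes with 200 to 399 bp of leader, and in 30.6% (27.2 to 34.2%) and 41.5% (39.4 to 43.6%) of those with 400 bp or more. An ATG in the leader was about as frequent in both sets, with 86.7% (84.0 to 89.0%) of member genes and 84.6% (83.4 to 85.7%) of unbound genes at 200 to 399 bp.

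The regions in 5′ UTRs were narrower than those upstream of genes. Their median width was 300 bp, with quartiles of 200 and 400 bp and a maximum of 1700 bp. A width of at least 500 bp was reached by 354 members, or 22.0% (20.1 to 24.1%), compared with 33.0% of the other WUS-GR regions. The difference was −11.002 percentage points (Newcombe 95% interval −13.2 to −8.69). Regions within 500 bp upstream reached it in 35.1% and those in coding sequence in 17.6%, so the members stood between the 2 neighbouring classes, 4.39 points (0.463 to 8.01) above coding sequence. The direction depended on the midpoint rule: when every region that touched a 5′ UTR was counted, the difference was 6.55 points, since a wide region touches more features.

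**Figure D2:**
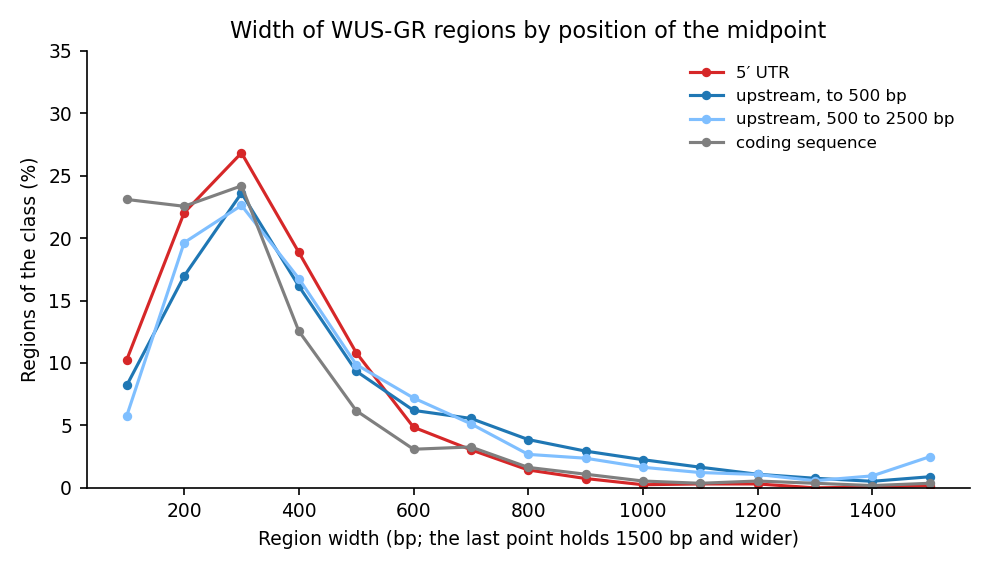
Width of WUS-GR regions by the position of their midpoint, as the percentage of the regions of each class at each width in bp, where windows were 100 bp long. The share of 5′ UTR regions at 500 bp or more was 22.0%, compared with 35.1% within 500 bp upstream and 17.6% in coding sequence.

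The widest members were led by GATA1, a GATA-type transcription factor, with 1700 bp at chr3:8685201-8686900. This region covered both the TSS and the start codon, and a 1000 bp stretch of lost H3K9/K14ac (chr3:8685501-8686500) lay wholly inside it. UBC6, a ubiquitin-conjugating enzyme, followed with 1600 bp and COL1, a relative of the flowering regulator CONSTANS, with 1500 bp, and neither overlapped a histone change. AT1G49032, which is uncharacterized, had 1400 bp and overlapped lost H3K9/K14ac. The next 5 were 1200 bp wide: the kinase-family gene AT2G40270 and NPY3, an NPH3-family protein, overlapped lost H3K9/K14ac. CKA1, the catalytic alpha subunit of casein kinase, overlapped gained H3K9/K14ac, and EXPA8, an expansin of the cell wall, and OFP5, an ovate family protein, overlapped no change. AT1G15800, with 1100 bp and no change, was the first by chromosome and start of 5 members of that width, and another of these, AT5G16200, overlapped lost H3K9/K14ac.

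A few genes held more than 1 member. There were 15 of them among 1591 (0.943%), and AT1G67900, an NPH3-family gene, held 3 in a leader of 3361 bp. Its regions lay 1674, 2374 and 2974 bp downstream of the TSS, and the last, 100 bp wide, overlapped gained H3K9/K14ac. TPS1, which makes trehalose-6-phosphate, held regions at 1112 and 3062 bp from its outermost TSS. AN3, a transcriptional coactivator of leaf growth, held them at 116 and 1266 bp, and LBD37, a LOB-domain protein, at 74 and 624 bp. ACA4, a calcium pump, held regions at 92 and 1242 bp, of which the one near the TSS overlapped gained H3K9/K14ac. In AN3, LBD37 and ACA4 1 region thus sat near the outermost TSS, whereas in TPS1 and AT1G67900 every region lay more than 1000 bp from it. Beyond the leader, 568 of the member genes (35.7%) also had a WUS-GR region upstream, and 759 (47.7%) had any other region in the gene or within 2500 bp upstream.

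The gene lists asked which kinds of genes carried a member, against 6.75% of all 23586 protein-coding genes with an annotated 5′ UTR. Among genes of meristem and organ identity 24 of 131 (18.3%, 12.6 to 25.8%) held one, and these genes had leaders with a median of 298 bp, compared with 194 bp over all genes. Of the auxin genes 8 of 94 (8.51%, 4.38 to 15.9%) and of the cytokinin genes 4 of 66 (6.06%, 2.38 to 14.6%) held one, and both intervals include the share over all genes. The AP2/ERF list, part of a family of transcription factors of ethylene and stress responses, stood at 9 of 39 (23.1%, 12.6 to 38.3%) with a median leader of 225 bp. Protein kinases stood at 149 of 1213 (12.3%, 10.6 to 14.3%) and genes of the photosystems at 7 of 41 (17.1%, 8.53 to 31.3%). At the other end were ribosomal protein genes, with 3 of 327 (0.917%) and a median leader of 127 bp, and pentatricopeptide repeat genes, with 2 of 220 (0.909%) and 102 bp. The shares were not adjusted for leader length, whose part in them was not tested. A WUS-GR region anywhere in the gene or within 2500 bp upstream was found in 36.5% of all these genes. For the lists it stood at 61.1% (meristem), 69.2% (AP2/ERF), 48.8% (photosystems), 46.6% (kinases), 74.5% (auxin) and 51.5% (cytokinin). Ribosomal protein genes stood at 22.0% and pentatricopeptide repeat genes at 21.4%. Lists high or low for members were thus also high or low for WUS-GR regions anywhere. No member was found in 14 genes known for regulatory upstream reading frames (upper limit 21.5%).

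Among the meristem genes were several with defined roles next to that of WUS. HAM1, HAM3 and HAM4 are GRAS-family factors that act with WUS in stem cell maintenance, and their regions were 600, 200 and 300 bp wide, with midpoints 151, 195 and 92 bp downstream of the TSS. PHB and REV, class III HD-ZIP factors that set the upper side of organs, had regions of 200 bp at 55 and 19 bp. KAN and KAN2, which set the lower side, had regions of 200 bp at 166 and 45 bp, and AS2, a LOB-domain factor of leaf polarity, had 200 bp at 557 bp. KAN, KAN2 and AS2 were also 3 of the 6 genes known as earlier WUS targets. Both sides of organ polarity were therefore represented, mostly by narrow regions.

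The squamosa-box factors SPL2, SPL9, SPL10 and SPL11, which drive the change from the juvenile to the adult phase, had wide regions of 1000, 600, 600 and 600 bp. In SPL10 and SPL11, which are close neighbours on chromosome 1, the midpoints lay 942 and 708 bp into leaders of 1545 and 1245 bp, and only the region of SPL11 overlapped lost H3K9/K14ac. The leaf growth regulators TCP4, TCP5 and TCP10 had regions of 300, 200 and 400 bp. CRN, the kinase-like partner of CLAVATA2 in receiving the stem cell signal CLV3, had 500 bp at 328 bp, and ER, the receptor kinase ERECTA, had 300 bp at 212 bp. The list was completed by AP2 and KNAT3 (300 bp each), SEU (400 bp), BLH1 (700 bp), WOX2 (500 bp), and YAB2 and CLE11 (200 bp each).

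The auxin genes with a member covered several steps of the pathway. They were the repressors IAA2 (500 bp wide), IAA12 (300 bp), IAA13 (400 bp) and IAA18 (400 bp), the response factors ARF6 (200 bp) and ARF10 (500 bp), the efflux carrier PIN4 (500 bp) and the kinase PID (100 bp), which directs such carriers. IAA2 had the midpoint 4 bp before the start codon, and ARF6 had it 864 bp before, in a leader of 952 bp. The IAA12 region covered the TSS. In the paper's table of genes tested in stem cells, IAA12 is marked neither as bound at the promoter nor as responsive to WUS. The reason for this difference was not tested. Only IAA13 overlapped a histone change: the region at chr2:14115801-14116200 shared 200 bp with lost H3K9/K14ac at chr2:14115501-14116000.

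In the cytokinin pathway RR16, a type-A response regulator that dampens the signal, held 2 regions of 100 bp at 77 and 277 bp from the TSS. CRF2 and CRF10, cytokinin response factors, held regions of 300 and 200 bp, and LOG7, an enzyme that activates cytokinin, held 400 bp at chr5:1925101-1925500. Of these only LOG7 overlapped a change, sharing 400 bp with lost H3K9/K14ac. WSIP2, a TOPLESS-related corepressor that interacts with WUS, held 300 bp at 43 bp and was the only one of 29 corepressor genes (3.45%, 0.611 to 17.2%). GI, a clock component, held 100 bp at 99 bp and was the only one of 19 clock genes (5.26%, 0.935 to 24.6%). Both intervals include the 6.75% of all genes.

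Lost H3K9/K14ac was found at 1 of the 8 auxin regions (IAA13), 1 of the 5 cytokinin regions (LOG7) and 2 of the 24 meristem regions (REV and SPL11), beside 9.52% of all members and 4.98% of all WUS-GR regions. Gained H3K9/K14ac was found at none of them, beside 6.47% of all members and 3.79% of all WUS-GR regions. Outside the named groups, and chosen after their values were seen, 2 genes of the AP2/ERF list lost H3K9/K14ac at the member, RAP2.2 (400 bp wide) and ERF104 (200 bp). Of that list RAP2.10 (200 bp) gained it, and so did AT1G19210, named below, an AP2/ERF-type factor outside the list. The light-harvesting genes LHCB3 (300 bp) and LHCB4.1 (600 bp) both gained it. These counts are too small to set a list apart from the others.

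Changes of H3K9/K14ac were more frequent at the members than at other WUS-GR regions. A region was called lost when H3K9/K14ac was higher in Col-0 and gained when it was higher in WUS-GR, and 1 bp of shared sequence counted as overlap. Lost H3K9/K14ac overlapped 153 members, or 9.52% (8.18 to 11.1%), against 4.98% of all WUS-GR regions and 4.12% of the others, a difference of 5.41 points (3.99 to 6.99). Gained H3K9/K14ac overlapped 104 members, or 6.47% (5.37 to 7.78%), against 3.79% of all regions and 3.28% of the others, a difference of 3.19 points (2.02 to 4.55). No member overlapped both, but gained and lost regions less than 73 bp apart had been dropped first, which left little room for such a case. The size of both differences moved with the rule, though not their direction. Losses differed by 8.47 points and gains by 6.38 points before neighbouring gained and lost regions were removed, when 15.4% and 12.2% of members overlapped one, and by 3.27 and 1.94 points with histone regions of at least 1000 bp only. Of the 257 members with either change 59.5% (53.4 to 65.4%) were losses, compared with 55.7% (51.8 to 59.5%) among other WUS-GR regions.

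The neighbouring position classes narrowed this contrast. Regions within 500 bp upstream overlapped lost H3K9/K14ac in 5.60%, 3.92 points (2.27 to 5.67) below the members, but regions in coding sequence did so in 8.73%, and that difference of 0.794 points (−2.18 to 3.38) was within counting error. For gains, upstream regions stood at 5.03%, a difference of 1.44 points (−0.00566 to 2.97). Coding regions stood at 10.7%, which was above the members by more than counting error (−4.26 points, −7.32 to −1.59). In introns beyond the leader losses stood at 7.98% (1.54 points, −2.03 to 4.39) and in 3′ UTRs at 4.51% (5.01 points, 2.46 to 7.15). Gains there were 3.13% (3.34 points, 0.706 to 5.24) and 6.67% (−0.195 points, −2.93 to 2.08). Regions from 500 to 2500 bp upstream and other intergenic regions, both part of the others, stood at 2.07% and 2.92% for losses. Their gains were 0.918% and 0.729%. Where the midpoint lay within 249 bp downstream of the TSS, losses were found at 9.57% (8.10 to 11.3%) of members and 9.84% (5.72 to 16.4%) of 122 coding or intronic regions. At this distance losses did not differ beyond counting error between leaders and the rest of the gene, while gains stood at 5.98% (4.83 to 7.38%) of members and 11.5% (6.96 to 18.3%) of the other genic regions. These comparisons depended on the overlap rule. With any change within 1000 bp counted, losses at members exceeded those at coding regions by 6.27 points (2.12 to 10.1) and gains differed by −0.674 points (−4.90 to 3.30). Before the removal of neighbouring gained and lost regions, gains at members exceeded those upstream by 3.18 points (1.25 to 5.17). Counted within 1000 bp, gains at members and at regions within 500 bp upstream differed by 0.852 points, which was within counting error.

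**Figure D3:**
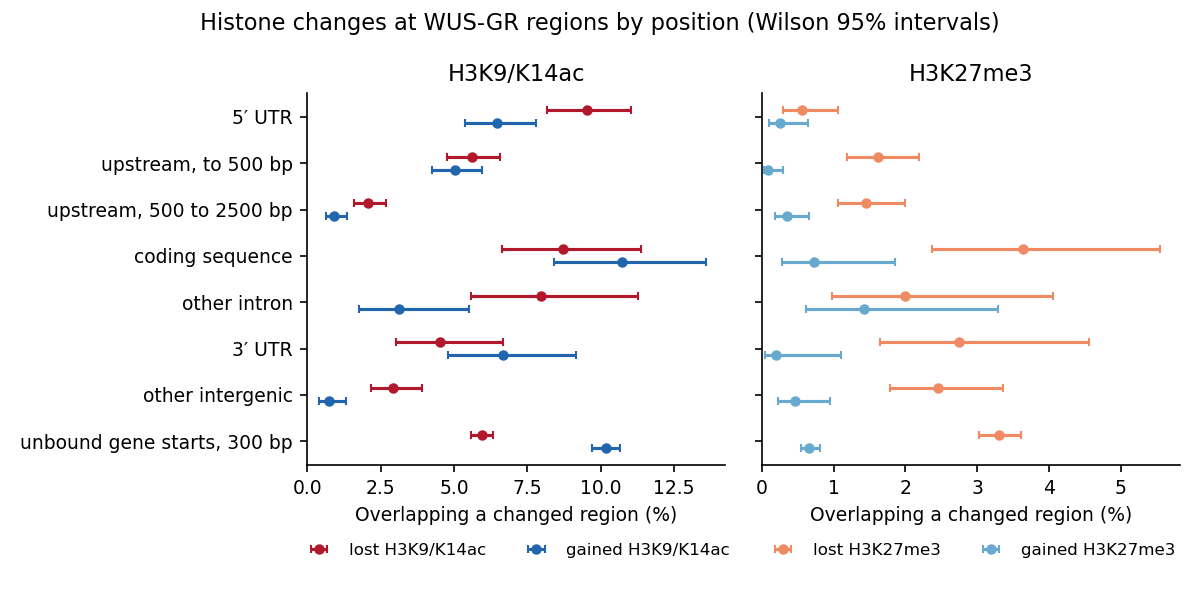
Percentage of WUS-GR regions in each position class that overlapped a lost or gained region of H3K9/K14ac (left) or H3K27me3 (right), with Wilson 95% intervals. The lowest line gives 300 bp windows at the starts of genes with no WUS-GR region, where 5.95% overlapped lost and 10.2% gained H3K9/K14ac. The members, of all widths, stood at 9.52% and 6.47%.

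Gene starts without any WUS-GR region gave a different reference. Windows of 300 bp centred 97 bp downstream of the TSS of 14880 such genes were set against the 431 members of exactly 300 bp. Lost H3K9/K14ac overlapped 39 of these members (9.05%, 6.69 to 12.1%) and 5.95% of the unbound windows, a difference of 3.09 points (0.703 to 6.20). Gained H3K9/K14ac overlapped 25 (5.80%, 3.96 to 8.42%) and 10.2%, a difference of −4.38 points (−6.29 to −1.72). Gains were therefore more frequent at members than at other WUS-GR regions but less frequent than at unbound gene starts, while losses were more frequent than in either. With unbound leaders of at least 200 bp the differences were 2.78 points (0.329 to 5.92) and −4.33 points (−6.34 to −1.60). The lists do not record how much H3K9/K14ac a site had to begin with, so the part of the starting level in these shares was not tested.

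The changed stretches lay mostly downstream of the members. In 129 of 153 overlaps with a loss (84.3%, 77.7 to 89.2%) and in 90 of 104 with a gain (86.5%, 78.7 to 91.8%) the centre of the histone region was farther into the gene than the midpoint of the WUS-GR region, by a median of 300 bp in both cases. The overlap itself was usually short, with a median of 200 bp of a histone region that was 1000 bp wide. Coding bases were included in 129 of the losses and 98 of the gains, and the TSS in 56 and 38. Around all members the share of positions inside a lost region was 5.91% at the midpoint and highest, at 14.2%, 500 bp farther into the gene, while gains stood at 4.54% and reached 11.9% at 600 bp. At 300 bp on the upstream side the shares were 2.55% and 1.56%. The shares fell again farther into the gene, to 9.83% and 8.77% at 1000 bp and 4.54% and 4.36% at 2000 bp. At 2000 bp on the upstream side they stood at 3.55% and 4.29%. Regions within 500 bp upstream showed a similar shift into the gene. Around them losses rose from 2.09% at the midpoint to 10.2% at 700 and 800 bp, and gains from 2.13% to 11.1% at 800 bp.

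**Figure D4:**
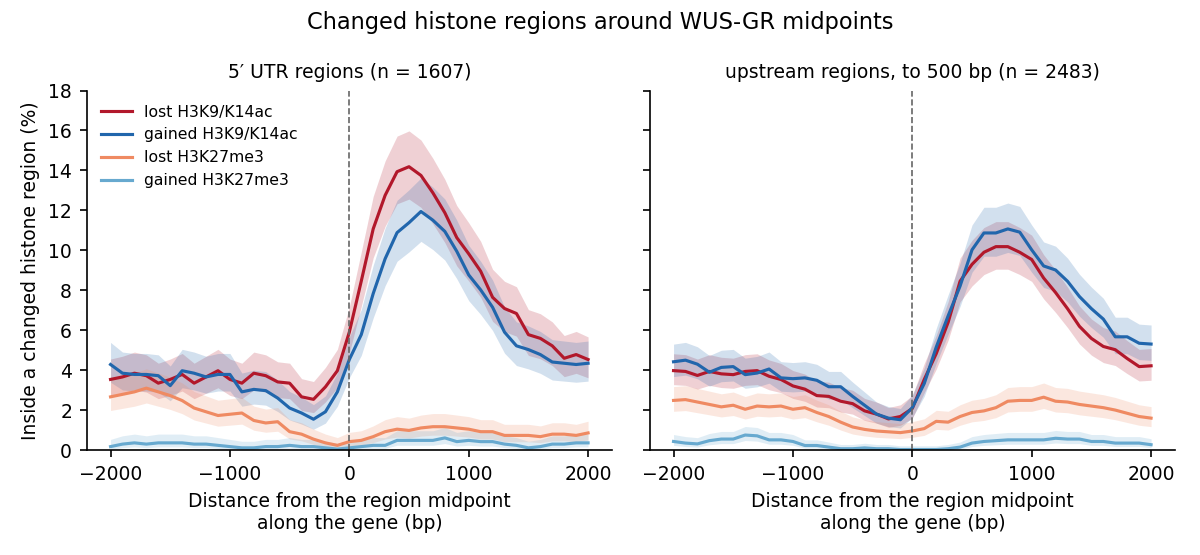
Percentage of positions inside a changed histone region, from 2000 bp on the upstream side to 2000 bp farther into the gene, around the midpoints of the members (left) and of WUS-GR regions within 500 bp upstream (right), with Wilson 95% bands. Around the members losses of H3K9/K14ac reached 14.2% at 500 bp and gains 11.9% at 600 bp. Around the upstream regions losses reached 10.2% at 700 and 800 bp and gains 11.1% at 800 bp.

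Wider members overlapped losses more often. A wider region can meet more windows by construction, and the part of this in the rise was not tested. Lost H3K9/K14ac was found at 6.36% of members of 100 to 200 bp, 9.40% at 300 to 400 bp and 14.4% at 500 bp or more. Gains at members stood at 6.17%, 6.27% and 7.34%. Losses at the other WUS-GR regions also rose with width, with 3.00%, 3.62% and 5.64%. Within each of these widths the members stood above regions within 500 bp upstream, at 2.72%, 5.27% and 8.04%, but not beyond counting error from coding regions, at 7.57% (4.90 to 11.5%), 8.91% (5.71 to 13.6%) and 11.3% (6.45 to 19.2%).

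The widest members with a loss were, after the 4 named above, AT5G16200, annotated as like a ribosomal protein, with 1100 bp, AT5G59540, an oxygenase, with 1000 bp, AT4G25620, a hydroxyproline-rich glycoprotein, with 900 bp, AT3G22160, a VQ-motif protein, and AT3G60200, uncharacterized, with 800 bp each, and AT3G49790, a carbohydrate-binding protein, with 700 bp. The loss at AT3G22160 shared 600 bp with the member and that at AT5G16200 shared 800 bp, so in these cases most of the member lay in the changed stretch. The widest members with a gain were, after CKA1, AT1G19210, an AP2/ERF-type factor, with 900 bp, RABA4a, a Rab GTPase, AT3G57450 and AT5G66580, both uncharacterized, with 800 bp each, BES1, MTP11 and AT4G22360, a SWIB-domain protein, with 700 bp each, and STZ and the U-box protein PUB29, the first by chromosome and start of several at 600 bp. AT3G49790 was likewise the first of several with a loss at 700 bp. At RABA4a the gained stretch of 2500 bp covered the whole member.

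H3K27me3 changes were rare at the members. Lost H3K27me3 overlapped 9 members (0.560%, 0.295 to 1.06%), against 1.72% of all WUS-GR regions and 1.95% of the others, a difference of −1.39 points (−1.80 to −0.815). Gained H3K27me3 overlapped 4 members (0.249%), against 0.347% of all regions and 0.366% of the others, a difference of −0.117 points (−0.332 to 0.287) that was within counting error. The losses were at AOC2, an enzyme of jasmonate synthesis, STY2, a SHI-family factor, SUVH1, a SET-domain protein, IDL3, a signalling peptide related to IDA, the calcium-binding gene AT2G41410, the DNA glycosylase-family gene AT3G12710, AT5G39410, AT1G77145 and AT5G05250. The gains were at TT4, the chalcone synthase of flavonoid synthesis, PLAT2, the PLATZ-family gene AT1G31040 and the kinase-family gene AT5G16500. Both marks changed at 3 members, and in each they moved the same way: AT2G41410 and SUVH1 lost both and TT4 gained both. After the removal of neighbouring gained and lost regions, no change of either mark was left at 1340 members (83.4%), compared with 90.6% of other WUS-GR regions. Before it, 37 members (2.30%) overlapped lost H3K27me3 and 21 (1.31%) gained H3K27me3, against 4.23% and 2.08% of the others.

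The sequence of the members was compared through short words searched on both strands of the central 200 bp. The GA repeat GAGAGA was found in 785 members, or 48.8% (25.0% of all WUS-GR regions and 20.5% of the others), a difference of 28.4 points (25.8 to 31.0). Windows at the middle of the leaders of genes with no WUS-GR region held it in 41.4%. Unbound leaders thus stood nearer to the members than the other WUS-GR regions did, and the members exceeded them by 7.48 points (4.92 to 10.1). The windows were 200 bp long and the median unbound leader 168 bp, so many reached beyond it. Leader length was not matched for any word, and its part was not tested. At 97 bp downstream of the TSS of unbound genes with leaders of at least 200 bp, 2523 of 5756 windows held the repeat. On the strand of the gene the CT form was found in 38.1% of members and the GA form in 17.4%, and in unbound leaders in 29.98% and 14.97%. In points, the members exceeded unbound leaders by more in the CT form.

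The G-box showed the largest difference in points between members and unbound leaders. CACGTG was found in 203 members, or 12.6%, close to the 14.6% of all WUS-GR regions, but in only 3.37% of unbound leaders, a ratio of 3.74 and a difference of 9.26 points (7.69 to 11.0). The word ACGCGC, added from earlier results on these data, stood at 6.72% of members, 5.20% of all WUS-GR regions and 1.51% of unbound leaders, and its ratio to unbound leaders was 4.46. The telo-box AAACCCTA, common in leaders of genes for translation, went the other way. It was found in 3.11% of members and 11.1% of unbound leaders, a difference of −7.96 points (−8.87 to −6.88), although all WUS-GR regions held it in only 1.72%. With unbound windows placed 97 bp downstream of the TSS in place of the middle of the leader, the G-box stood at 2.84% and the GA repeat at 42.6%.

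The remaining words differed from unbound leaders by fewer points. GGGCCC, a site for TCP factors, was found in 2.55% of members and 2.63% of all WUS-GR regions, but in 0.699% of unbound leaders. The auxin response element TGTCTC stood at 15.6% (13.6% of all WUS-GR regions and 14.4% of unbound leaders). Its variant TGTCGG stood at 4.85% (5.88% and 3.96%). Of the homeodomain words, TTAATGG stood at 4.60% (4.42% and 4.53%), within counting error of unbound leaders (0.0753 points, −0.909 to 1.26). TAATGA stood at 14.6% (17.3% and 12.2%), 2.32 points (0.591 to 4.20) above unbound leaders. The TATA word TATAAA stood at 27.9% (29.0% of all WUS-GR regions). Its order against unbound genes depended on the window, with 30.6% in the middle of the leader and 23.2% at 97 bp from the TSS. The median GC content was 37% in members and in unbound leaders and 35% in the other WUS-GR regions. A match describes the sequence only and is not a binding site.

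Losses of H3K9/K14ac were more frequent at members with the GA repeat, and the differences for gains and for the G-box were smaller and less certain. Lost H3K9/K14ac overlapped 99 of 785 members with the GA repeat (12.6%) and 54 of 822 without it (6.57%), a difference of 6.04 points (3.18 to 8.96). Gains had the opposite order, with 5.10% and 7.79% (−2.69 points, −5.12 to −0.277). With the G-box, gains stood at 9.85% (20 of 203) and without it at 5.98%, a difference of 3.87 points (0.221 to 8.87), and losses at 6.40% and 9.97% (−3.57 points, −6.68 to 0.919). Read from the other side, the GA repeat was present in 64.7% of the members with a loss and 38.5% of those with a gain. These splits were made after the values were seen.

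For losses the difference with the GA repeat was larger in the leaders than upstream. Among regions within 500 bp upstream losses stood at 5.08% with the repeat and 5.73% without it, and the difference between the 2 contrasts was 6.70 points (2.93 to 10.2). At starts of unbound genes, in windows all 300 bp wide, losses stood at 6.76% with the repeat and 5.35% without it. The contrast in the members exceeded this one by 4.63 points (1.66 to 7.65), but the members were 100 to 1700 bp wide, so the widths were unlike. Among the members the difference was 6.30 points (2.44 to 10.3) for midpoints up to 97 bp from the TSS and 5.68 points (1.42 to 9.99) for those farther away. It was 1.87 points (−2.41 to 6.37) at a width of 100 to 200 bp, 5.95 points (1.74 to 10.2) at 300 to 400 bp and 13.2 points (5.76 to 21.0) at 500 bp or more. By leader length it was 8.85 points (1.50 to 16.2) under 200 bp, 7.36 points (3.14 to 11.7) at 200 to 399 bp and 3.36 points (−1.30 to 8.19) at 400 bp or more. The CT form alone and the GA form alone gave 5.09 points (1.94 to 8.53) and 6.73 points (2.05 to 12.8). The direction was the same in each of these subsets, while the interval reached 0 in the narrowest members and the longest leaders. For the G-box the contrast in gains did not differ from that upstream beyond counting error (4.16 points, −0.349 to 9.53). Nor did it differ so from that in the 300 bp windows at unbound gene starts (2.43 points, −2.59 to 8.14), where widths were again unlike. In the members its interval reached 0 in each of the 3 width classes. The contrast in gains with the GA repeat did not differ from that upstream beyond counting error (−2.25 points, −5.65 to 0.789), and its interval reached 0 on both sides of the median distance and in each of the 3 classes of leader length.

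**Figure D5:**
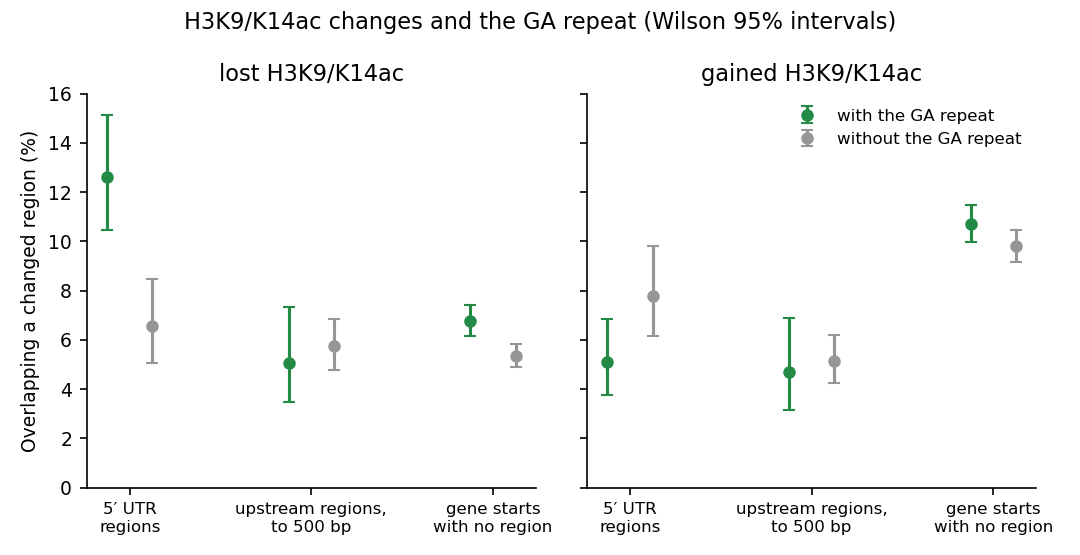
Percentage overlapping lost (left) or gained (right) H3K9/K14ac with and without the GA repeat, in the members, in WUS-GR regions within 500 bp upstream and at the starts of genes with no WUS-GR region, with Wilson 95% intervals. Losses stood at 12.6% of members with the repeat and 6.57% without it. The windows at gene starts were all 300 bp wide, whereas the members were of all widths.

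REV, IAA13 and LOG7 are examples of members with both the repeat and the loss. In REV the WUS-GR region was chr5:24396901-24397100 and the lost stretch chr5:24397001-24397500, so that the repeat printed above, at chr5:24397046-24397075, lay in the part they shared. The same was not true of IAA13, whose printed repeat lay just upstream of the lost stretch. BES1 is an example of the G-box with a gain: its region was chr1:6688301-6689000, the gained stretch chr1:6688501-6690000, and the printed G-box lay within both.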

How the data were processed

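The authors aligned the chromatin immunoprecipitation reads to TAIR10 with BWA, and called enriched windows between the genotypes with hiddenDomains. Windows of 100 bp (RFP-trap) or 500 bp (histone marks) above a posterior threshold were listed. The deposited lists hold positions only, with no signal and no counts, so depth is unknown.

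Touching windows were merged with Python 3.11.15 and numpy 2.4.6 (figures with matplotlib 3.10.9). As in the study's methods, a gained and a lost region of the same mark were both dropped where less than 73 bp lay between them. This left 5110 lost and 5487 gained regions of H3K9/K14ac and 2570 and 671 of H3K27me3. Genes, 5′ UTRs and sequences came from the RefSeq copy of TAIR10.1, whose leaders may differ from those of TAIR10. Wilson and Newcombe 95% intervals cover counting error only, and the scripts were tested on simulated data.

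The members, gene lists and words were chosen with earlier results of these data known. Named genes are the 10 widest members, those of the auxin, cytokinin, meristem, corepressor, clock and upstream reading frame lists, the 10 widest with lost and with gained H3K9/K14ac, those with an H3K27me3 change, and the first 10 genes by summed width with 2 or more members, with ties taken by chromosome and start. The word ACGCGC, the unbound gene starts, the splits by GA repeat and the printed GA repeats were added after seeing the data. Gene symbols that matched a list through a different protein were left out. The RNA measurements of the study were not analysed here. The dexamethasone concentration follows the labels, and the methods give a lower one.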

Additional observations from a re-analysis of the deposited data

How the results depend on the processing

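Counting every region that touched a 5′ UTR gave 3514 members and turned the width difference to 6.55 points (4.63 to 8.48). Of 49 alternatives, 43 kept both the direction and the side of 0 of their interval, or, for a number or a median, stayed within 1.5 times the reported value. The 43 include those that asked for an overlap of at least 100 bp, which could not differ from the reported values. All windows begin and end on a grid of 100 bp, so any overlap was already that long. The alternatives for H3K9/K14ac kept their direction while their size ranged from 3.27 to 9.92 points for losses (5.41 as reported) and from 1.94 to 7.63 points for gains (3.19). The highest value came when changes within 1000 bp counted and the lowest with histone regions of at least 1000 bp. The difference in gained H3K27me3, which rested on 4 members, moved to −0.270 points with any overlap and −0.769 points without removing neighbouring gained and lost regions, where the interval lay below 0, and to 0.0154 points in regions of at least 300 bp. The cause was not tested. Restricted to regions of at least 300 bp, a choice made after seeing the data, the meristem list held 15 genes. No paired analysis was possible because there was only 1 list for every group. With no replicates and no depth, the intervals cannot show how far a second experiment would differ.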
